A study of Mus musculus with 12 samples.

Results

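The homeostatic reference state of subdural CNS-associated macrophages (sdCAMs), which reside in the perivascular spaces and the leptomeninges, was described from the 4 libraries of tdT+ cells taken from vehicle-treated mice. They were chosen by their labels alone, as the 4 control libraries among the 12 of the series, and no library of another group entered any value. All mice were homozygous at both modified loci (Mrc1CreERT2/CreERT2:R26tdT/tdT), so that tamoxifen switched on the red fluorescent protein tdTomato (tdT) in cells that expressed Mrc1, the gene of the mannose receptor CD206. Vehicle, an aqueous cyclodextrin solution, was given for 7 days starting 4 weeks after tamoxifen, and CD206+ tdT+ cells were sorted 8 weeks after the last dose from brain without the choroid plexuses. The other 8 libraries come from mice given the CSF-1 receptor inhibitor BLZ945 and were not analysed here. Dosing began in young adult mice, with both sexes in each group and 4 mice per treatment. The vehicle libraries are labelled F1, F2, M1 and M2 and are taken as 1 mouse each, which the labels themselves do not say. As the inducible Cre sits in the Mrc1 locus on both alleles and CD206 was also used to sort, the level of Mrc1 itself is not independent of the model and the gate.

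CNS-associated macrophages line the blood vessels and the surface of the brain, where they take up proteins, lipids and debris from the cerebrospinal fluid and present antigen. They arise mainly from yolk sac precursors and depend on signals through the CSF-1 receptor. They share much of their gene expression with microglia, the macrophages of the parenchyma, and are told apart by genes such as Mrc1, Cd163, Lyve1, Pf4, Stab1 and F13a1. Levels are given as TPM, a length-scaled transcript abundance in which the count of a gene is divided by the length of its exons and the values of each library are scaled to the same sum, so that levels can be set side by side between genes. Values are means ± SD over 4 libraries unless stated otherwise.

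The libraries held 20398761 (F1), 20439390 (F2), 23395058 (M1) and 22013690 (M2) counts, and a floor of 3 counts corresponds to at most 1.47e-05% of a library. Between 14230 and 15638 of the 56735 gene names had a count in a library, 11481 had a count in all 4, and 37266 had none in any. The cDNA was amplified by PCR without molecular identifiers, so floors and counting errors cover counting error only. Xist was read only in F1 and F2, and Ddx3y, Eif2s3y and Uty only in M1 and M2. The Y-linked Kdm5d had 112 counts in F2, against 0 in F1, 203 in M1 and 905 in M2. The tdTomato entry had 0 counts in all 4 libraries, so the reporter could not be used to check the sort. Counts of all 6 pairs of libraries differed by more than counting error (chi-square divided by its degrees of freedom, 39.1 or more).

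The transcriptome was concentrated in few genes. A total of 12670 genes had a mean of at least 1 TPM, 1331 of at least 100 TPM, 110 of at least 1000 TPM and 12 of at least 10000 TPM. The 10 most abundant genes held 22.8% ± 0.752 of all TPM, the 100 most abundant 46.6% ± 0.947 and the 500 most abundant 66.1% ± 0.862. The limit of the top 500 fell at 266 TPM with a mean of 265.8 TPM for the last gene inside and 265.0 TPM for the first outside. Folr2, the folate receptor of tissue macrophages, was the gene just outside, and Timd4, a phosphatidylserine receptor, stood at rank 499. Ranking by counts without length gave another picture of the same cells, as 351 of the 500 genes were shared and the median exon length rose from 2132 to 3429 bases.

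**Figure D1:**
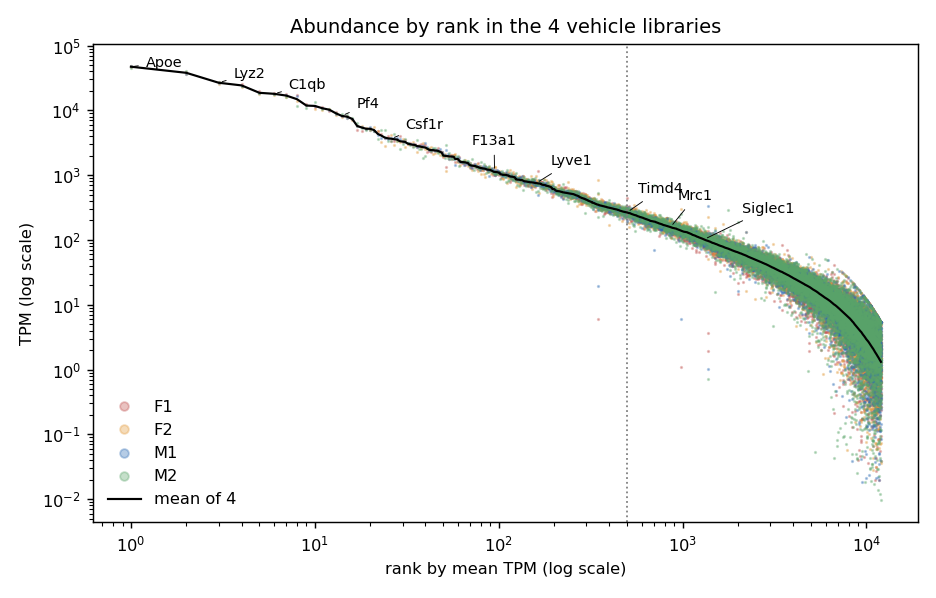
TPM of the 12000 most abundant genes (points, by library) and the mean of the 4 libraries (line) against rank by mean TPM, both axes on a log scale. The dotted line marks rank 500. The mean falls from 47215 TPM for Apoe at rank 1 to 158 TPM for Mrc1 at rank 860, and the points of the single libraries spread further from the line as the level falls.

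Apoe, the apolipoprotein that carries lipids in the brain, was the most abundant transcript, at 47065 TPM in F1, 47818 in F2, 48901 in M1 and 45076 in M2 (47215 ± 1613). It alone made up 4.72% ± 0.161 of TPM. Tmsb4x, the actin-sequestering peptide thymosin beta-4, followed at 39792, 35796, 36224 and 40194 TPM, and Lyz2, the lysozyme of myeloid cells, at 27622, 25299, 26897 and 27008 TPM. The values of these 3 genes did not overlap, and their order was the same in all 4 libraries. B2m (24288 ± 1004 TPM), the light chain of MHC class I, and Cst3 (18666 ± 679 TPM), the secreted cysteine protease inhibitor cystatin C, completed the first 5. The SDs of the next ranks overlapped in part, as C1qb (18029 ± 637 TPM) lay within the spread of Cst3. A total of 22 genes were among the 25 most abundant of every library. Apart from genes already named, the 25 highest means belonged to C1qa, Cd74, Ctss, Ftl1, C1qc, Itm2b, Fcer1g, Pf4, Fth1, Tyrobp, Selenop, Serinc3, Ctsb, Ctsd, Trf, Fcrls, mt-Cytb, mt-Rnr2 and H2-D1. Serinc3, a membrane protein of the serine incorporator family, was the only one of them in no class, at 5438 ± 404 TPM, and Itm2b, a membrane protein of the secretory pathway, reached 10236 ± 286 TPM.

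The genes that mark CNS-associated macrophages were abundant, and all 18 on the list had at least 88.6 TPM in every library. The list was chosen with earlier results of these data known. The paper drew Apoe, Lyz2, Ms4a7 and Clec12a as shared sdCAM genes partly from this experiment. High levels of the listed genes are therefore a description and no independent check of identity. Pf4, the chemokine CXCL4, stood at rank 14 with 8207 TPM in F1, 7905 in F2, 8053 in M1 and 8772 in M2. Cbr2, a carbonyl reductase, followed at rank 35 (2934 ± 84.6 TPM). F13a1, a subunit of coagulation factor XIII, held 1021, 1352, 1100 and 1031 TPM at rank 95. The hyaluronan receptor Lyve1 held 791 TPM in F1, 980 in F2, 697 in M1 and 549 in M2 (rank 160), and the hemoglobin scavenger receptor Cd163 638, 887, 681 and 624 TPM (rank 176). Stab1, a scavenger receptor for modified lipoproteins, was steadier, with 516, 592, 525 and 541 TPM at rank 225. F2 was the highest library for F13a1, Lyve1, Cd163, Stab1 and Mrc1, and M2 for Pf4. Thus 5 of these 6 marker genes were within the top 500, and none was absent from a library. Mrc1 was the exception at rank 860, with 120, 189, 171 and 151 TPM. By counts without length Mrc1, whose exons span 6371 bases, ranked 352. Of the remaining markers, Dab2 (962 ± 169.7 TPM), an adaptor of endocytosis, Cd209f (823 ± 175 TPM), a lectin of the DC-SIGN family, and Ms4a7 (662 ± 30.5 TPM) lay in the top 200, whereas Clec12a, Colec12 and Siglec1 had means between 102 and 147 TPM.

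**Figure D2:**
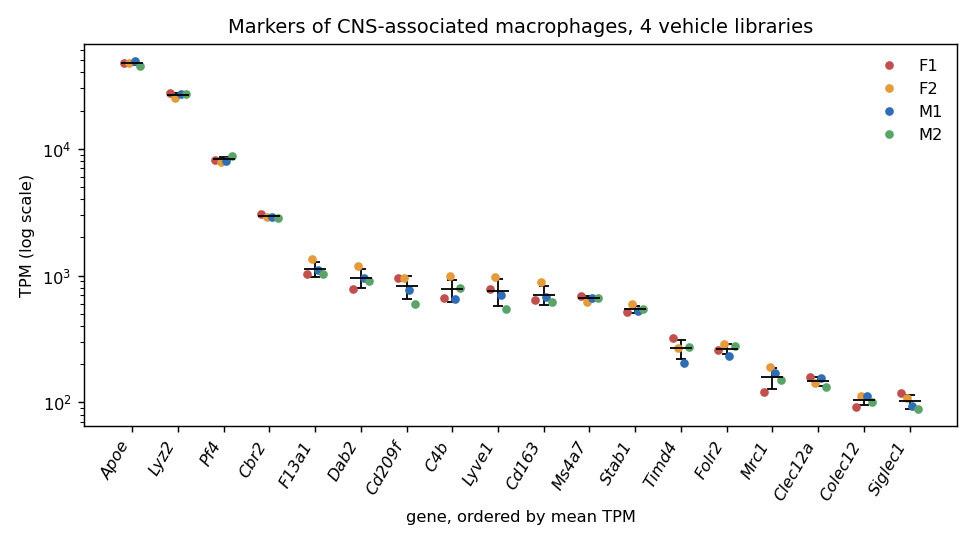
TPM (log scale) of the 18 markers of CNS-associated macrophages, ordered by mean, with 1 point per vehicle library and bars for the mean ± SD over 4 libraries. Apoe, Lyz2, Pf4 and Cbr2 lie above the others, and Mrc1 lies between 120 and 189 TPM. Cd209f and Lyve1 reach their lowest value in M2.

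General macrophage genes had a lower median spread than any of the 27 gene classes. All 16 were at 45.8 TPM or more in every library and 9 were among the first 100 genes. The median coefficient of variation (CV, the SD as a percentage of the mean) of the 12 within the top 500 was 4.17%, against 8.93% over all 500. Spread falls with level, and the median was 6.57% for ranks 1 to 50 and 7.47% for ranks 51 to 100. The part of abundance in the low spread was not tested, and the list was chosen with earlier results known. Csf1r, the receptor on which these cells depend, held 3402, 4199, 3713 and 3323 TPM (rank 26). Its ligands were far lower, with Csf1 at 5.90 ± 2.08 TPM and Il34 read only in M1 and M2, at 0.290 and 2.19 TPM. The mean ratio of Csf1r to Csf1 was 673 ± 209. Spi1, the gene of the lineage factor PU.1, had the smallest spread of the top 500, with 389 TPM in F1, 388 in F2, 388 in M1 and 386 in M2 (CV 0.272%). This is below its own counting error and 1 of 2 such cases among the 500 genes. Adgre1, which encodes the F4/80 antigen, held 1598 ± 40.2 TPM, and Cx3cr1, the fractalkine receptor, 478 ± 56.3 TPM. Itgam and Ptprc, which encode CD11b and CD45, were lowest of the list at 69.9 ± 13.5 and 49.3 ± 4.43 TPM.

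The top 500 were grouped into 27 gene classes, each gene counted in the first class that lists it. A total of 345 of the 500 genes fell into a class and 155 into none, and all class members together held 64.7% ± 0.781 of TPM. The class of lysosomal enzymes and membrane proteins, which also holds the secreted inhibitor Cst3, had the largest share. It held 11.5% ± 0.300 of TPM, with 34 genes in the top 500. Actin and motility genes held 6.57% ± 0.176 (31 genes), lipid transport and metabolism 5.78% ± 0.182 (10 genes) and complement 4.93% ± 0.185 (8 genes). The lipid share was mostly Apoe, which alone held 4.72% of TPM. The largest class by number was cytosolic ribosomal proteins, with 36 genes and 2.75% ± 0.202 of TPM. Rps3a1, a ribosomal protein gene at rank 121 (933 TPM), was not on that list. It counts among the genes in no class and is left out of all ribosomal counts and shares. Ranking without length left 17 ribosomal genes and 4 of 25 nuclear-encoded respiratory genes in the top 500. The list of cytokine, chemokine and growth factor receptors, which also takes in other surface receptors, increased from 13 to 23. By biotype, 483 of the 500 symbols matched protein-coding genes and 7 had no match in the annotation used here.

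**Figure D3:**
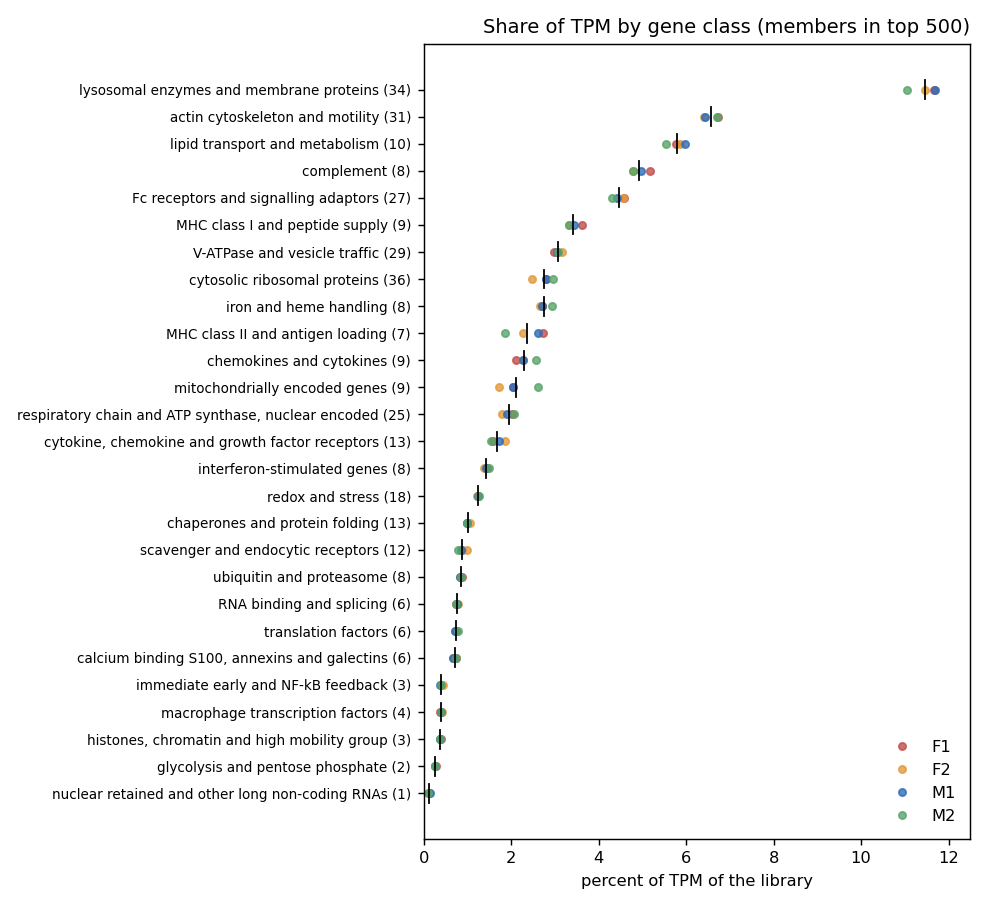
Percent of each library's TPM held by the 27 gene classes, with 1 point per library and a bar at the mean, and the number of class members among the top 500 genes in brackets. The lysosomal class, Cst3 included, leads at 11.5% of TPM, and the points separate most for MHC class II and mitochondrially encoded genes.

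The lysosomal class included Lyz2 and Cst3, its 2 most abundant members, and its share rests in good part on them. Cst3, a secreted inhibitor and no lysosomal enzyme or membrane protein, alone held 18666 of the 114698 TPM of the class. The cysteine proteases Ctss (11867 ± 708 TPM) and Ctsb (5207 ± 100.4 TPM) and the aspartic protease Ctsd (5198 ± 265 TPM) lay in the top 20. Cd68, a heavily glycosylated membrane protein of macrophage lysosomes, held 3541 ± 223 TPM, and the asparagine endopeptidase Lgmn 3302 ± 267 TPM. Hexa, which encodes a subunit of beta-hexosaminidase, was steady at 3057, 3025, 3087 and 3113 TPM (CV 1.24%). Of 87 lysosomal genes listed, 84 had at least 1 TPM, while Ctsk, the protease of bone-resorbing cells, and Gpnmb were at 0 counts in all 4 libraries. Lyz1, the near-identical neighbour of Lyz2 on chromosome 10, was listed at 43.3 ± 26.2 TPM. Reads that map to both were not counted, so the split rests on the other reads and both levels can be lowered.

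The palindromic E-box TCACGTGA, the core of the element through which TFEB and its relatives act on lysosomal genes, was searched on both strands in the 250 bases before each annotated start of RefSeq genes (build GRCm38.p6). It contains the shorter E-box CACGTG. At least 1 window was found for 383 of the top 500 genes. The longer motif lay before 3 of the 28 lysosomal members of the top 500 with a window (10.7%), 10 of all 383 (2.61%), 172 of 8900 genes of at least 1 TPM (1.93%) and 225 of 20133 genes in the table (1.12%). The shorter motif lay before 6 of the 28 lysosomal members (21.4%), 8.36% of the top 500 genes, 10.2% of genes of at least 1 TPM and 7.58% of all genes. The windows of the 3 lysosomal genes are shown with the longer motif in capitals, since they belong to the class with the largest share of TPM. Ctsd (chr7:142387828-142388077, minus strand), Ctsa (chr2:164833523-164833772, plus strand), which encodes cathepsin A, and Mfsd1 (chr3:67582518-67582767, plus strand), a lysosomal transporter, held the motif with its first base 99, 13 and, for the nearest of 3 matches, 19 bases before the start.
Ctsd: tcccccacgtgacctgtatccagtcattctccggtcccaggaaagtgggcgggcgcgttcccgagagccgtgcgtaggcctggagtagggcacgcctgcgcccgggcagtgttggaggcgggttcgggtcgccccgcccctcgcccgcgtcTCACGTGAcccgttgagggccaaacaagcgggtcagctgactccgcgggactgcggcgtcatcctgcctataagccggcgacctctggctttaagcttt
Ctsa: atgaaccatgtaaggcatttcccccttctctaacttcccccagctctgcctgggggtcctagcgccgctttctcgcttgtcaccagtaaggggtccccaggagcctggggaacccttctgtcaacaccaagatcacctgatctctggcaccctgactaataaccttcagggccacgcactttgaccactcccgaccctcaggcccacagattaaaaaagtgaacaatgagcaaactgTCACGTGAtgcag
Mfsd1: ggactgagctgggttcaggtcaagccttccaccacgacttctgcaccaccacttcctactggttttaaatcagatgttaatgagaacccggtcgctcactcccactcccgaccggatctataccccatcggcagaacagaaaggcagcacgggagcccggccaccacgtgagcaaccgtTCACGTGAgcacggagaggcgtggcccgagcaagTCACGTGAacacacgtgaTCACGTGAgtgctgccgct
Their levels were 5198 ± 265, 1127 ± 61.7 and 555 ± 37.5 TPM. Exons of Ctsa and of the lipid transfer protein gene Pltp overlap, and strand was not used in counting, so reads over the shared stretch cannot be told apart. A match of letters is a description and was not tested for binding.

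Complement was led by the 3 chains of C1q, the starter of the classical pathway, whose genes lie side by side on chromosome 4 (GRCm39, chr4:136607440-136613498 for C1qb, chr4:136617115-136620376 for C1qc and chr4:136623228-136626114 for C1qa). C1qb held 18852, 17436, 18196 and 17632 TPM in F1, F2, M1 and M2. C1qa held 17966, 16150, 17214 and 16325 TPM, and C1qc 11378, 10279, 10907 and 10579 TPM. All 3 were highest in F1 and lowest in F2, and their ratios hardly moved between libraries. C1qb stood to C1qa as 1.07 ± 0.0157, and C1qa to C1qc as 1.57 ± 0.0168. C4b was listed at 777 ± 154 TPM and its near-identical neighbour C4a at 0.331 ± 0.0666 TPM, a split that is uncertain for copies that share reads. The receptors for the anaphylatoxins C5a and C3a, C5ar1 and C3ar1, held 841 ± 84.4 and 609.6 ± 11.5 TPM. C3 itself lay at 22.6 ± 8.60 TPM, and Cfd, Cfi and C7 were at 0 counts.

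Genes of antigen presentation differed in spread. The median CV of the MHC class I genes of the top 500 was 8.45%, with H2-D1 at 4086, 3722, 3676 and 3322 TPM and H2-K1 at 1461, 1486, 1479 and 1417 TPM. Of the 9 class I genes of the top 500, 6 were lowest in M2. The median CV of class II genes was 14.4%. The invariant chain Cd74 held 17298 TPM in F1, 14110 in F2, 16469 in M1 and 11674 in M2. The chains of the class II dimers followed it, with H2-Ab1 at 3975, 3247, 3626 and 2532 TPM, H2-Eb1 at 2896, 2575, 3192 and 2010 TPM and H2-Aa at 1913, 1608, 1822 and 1377 TPM. M2 was lowest for all 7 class II genes of the top 500, against 160 of all 500 genes. The share of the class ranged from 1.85% of TPM in M2 to 2.73% in F1, whereas the 6 ratios between Cd74, H2-Aa, H2-Ab1 and H2-Eb1 had CVs between 3.01% and 8.09%. H2-Ea was at 0 counts in every library.

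The class of Fc receptors and signalling adaptors held 4.47% ± 0.127 of TPM. It also takes in other membrane and signalling genes, such as Cd81, Ms4a7 and Ptpn6. The ITAM-bearing adaptors Fcer1g and Tyrobp, through which many activating receptors signal, stood at 9039 ± 343 and 7366 ± 277 TPM in a ratio of 1.23 ± 0.0321. Fcrls, an Fc receptor-like protein, held 4765, 4826, 4171 and 3583 TPM. The low-affinity IgG receptor Fcgr3 (3007 ± 108 TPM) exceeded the inhibitory Fcgr2b (751 ± 32.1 TPM) and the high-affinity Fcgr1 (496 ± 24.8 TPM). Beta-2 integrin Itgb2 was 4.27 ± 1.35 times as high as its partner Itgam, and the oxidase subunit Cyba 5.41 ± 1.34 times as high as Cybb. Tgfbr2, the ligand-binding chain of the TGF-beta receptor, was 2.00 ± 0.839 times as high as Tgfbr1, with the largest ratio of 3.24 in M2. The ratios for Itgb2, Cyba and Tgfbr2 had CVs of 31.5%, 24.7% and 42.0%, against 2.62% for Fcer1g to Tyrobp and 1.01% to 1.47% for C1q. That of Cyba to Cybb was largest in F1, at 7.38. The C1q genes are far more abundant, and the part of level in these differences was not tested.

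Scavenger and endocytic receptors were moderately abundant and uneven. Gas6, the bridge between phosphatidylserine and TAM receptors, led the class at 1591 ± 30.8 TPM. Its receptor Axl held 346, 352, 286 and 241 TPM and Mertk 116, 130, 106 and 103 TPM, whereas Tyro3 had 0.0235 TPM on average. Cd36, a receptor for oxidised lipids, held 462, 782, 669 and 636 TPM. M2 was lowest for 7 of the 12 members in the top 500 and highest for none, against 160 and 146 of all 500 genes. Marco, Olr1 and Mrc2, which encode other scavenger receptors, were at 0 counts.

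Iron and heme genes were led by the ferritin chains. Ftl1 held 11347, 10598, 11647 and 13273 TPM, and Fth1 8116, 7642, 7759 and 8418 TPM. Trf, the iron carrier transferrin, held 4970 ± 359 TPM. Both ferritin chains were highest in M2 and lowest in F2. The iron exporter Slc40a1 (284 ± 24.4 TPM) and the heme oxygenase Hmox1 (270 ± 41.4 TPM) lay near the end of the top 500, and Hamp, Hp and Lcn2 were at 0 counts. Among lipid genes, Hpgd, which inactivates prostaglandins, held 2004 ± 101 TPM and the phospholipase Pla2g7 841 ± 86.8 TPM, whereas Ptgs2, the inducible cyclooxygenase, had 0 counts and its constitutive relative Ptgs1 308 ± 26.1 TPM.

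The list of chemokines and cytokines held 9 genes of the top 500. Besides Pf4 it included Selenop, the plasma selenium carrier, which is no cytokine, and F13a1, with Selenop at 5753 ± 594 TPM. The CC chemokines Ccl8 and Ccl12, which attract monocytes and lymphocytes, ranked 52 and 58. Ccl8 held 1358 TPM in F1, 1172 in F2, 2487 in M1 and 2886 in M2, and Ccl12 1602, 2126, 1441 and 1951 TPM. Ccl8 was lower in F1 and F2 than in M1 and M2, and Ccl12 was lower in F1 and M1 than in F2 and M2. No test was made of either split, and how many other genes split in these ways was not counted. Ccl7 and Ccl2, which lie in the same cluster of genes, were both highest in M2 at 733 and 227 TPM. Inflammatory cytokines were low, as Tnf held 9.26 ± 6.93 TPM and Il1b 8.75 ± 4.62 TPM, and Il6 and Ccl11 were at 0 counts.

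A TATA box (TATAAA on the strand of the gene) with its first base 20 to 40 bases before the start was found for 12 of the 383 top 500 genes with a window (3.13%), 133 of 8900 genes of at least 1 TPM (1.49%) and 578 of all 20133 (2.87%). Of the 65 genes with a window among the first 100, only H2-D1, Ccl8 and Ccl12 had it there. The windows of these 3 genes are shown as those of the most abundant genes with the box, which is in capitals. They are H2-D1 (chr17:35262844-35263093, plus strand), Ccl8 (chr11:82114935-82115184, plus strand) and Ccl12 (chr11:82101595-82101844, plus strand) in GRCm38.p6.
H2-D1: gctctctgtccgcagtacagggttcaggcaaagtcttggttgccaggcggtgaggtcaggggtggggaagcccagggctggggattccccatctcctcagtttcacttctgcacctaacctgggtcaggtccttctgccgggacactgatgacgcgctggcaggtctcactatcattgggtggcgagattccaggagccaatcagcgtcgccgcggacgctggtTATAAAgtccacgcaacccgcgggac
Ccl8: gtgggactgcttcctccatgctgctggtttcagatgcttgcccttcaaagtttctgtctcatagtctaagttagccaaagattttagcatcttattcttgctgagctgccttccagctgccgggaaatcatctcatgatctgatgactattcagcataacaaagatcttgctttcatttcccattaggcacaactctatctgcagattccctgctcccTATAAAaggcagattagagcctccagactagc
Ccl12: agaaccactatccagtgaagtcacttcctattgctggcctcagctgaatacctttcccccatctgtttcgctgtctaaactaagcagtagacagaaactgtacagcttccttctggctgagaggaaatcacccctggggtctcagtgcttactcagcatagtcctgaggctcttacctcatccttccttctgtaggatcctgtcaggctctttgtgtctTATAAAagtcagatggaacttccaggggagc
The box begins 26, 32 and 31 bases before the start. No TATA box in this interval was found before the 24 ribosomal and 28 lysosomal genes with a window. The same held for 24 vesicle and proton pump, 20 nuclear-encoded respiratory, 18 Fc receptor and adaptor and 5 complement genes. At shares of 1.49% to 3.13%, groups of this size are too small for the absence to set a class apart. An ETS core (CTTCCG, both strands) lay before 14 of the 24 ribosomal genes with a window (58.3%). The share was 30.4% for genes of at least 1 TPM, 26.4% for the top 500 and 18.3% for all genes. Rps3a1, which is outside the class, also held the core. The share counts a gene when any of its windows holds the motif, and 51 of the top 500 genes had more than 1 window.

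The list of receptors for cytokines, chemokines and growth factors held 1.67% ± 0.145 of TPM and transcription factors 0.396% ± 0.0252. The receptor list also takes in other surface receptors, such as Adgre1, Gpr34, P2ry12 and Tlr2, so its share and counts cover these too. Behind Csf1r and Adgre1 came the interferon-gamma receptor chain Ifngr1 (1218 ± 68.1 TPM), Gpr34 (1149 ± 125 TPM), P2ry12 (853 ± 120 TPM) and P2ry13 (782 ± 69.7 TPM). The next by level were P2ry6, Gpr183, Ccr1, Cx3cr1, Tlr2, Tnfrsf1a, Mpeg1 (which encodes a pore-forming protein), Tgfbr2 and Il13ra1, the last at 238 TPM. F2 was the highest library for 11 of the 13 members of the receptor list in the top 500, Mpeg1 included, against 152 of all 500 genes. Only 4 of 73 listed transcription factors reached the top 500. These were Maf (413 ± 29.0 TPM), Spi1 (388 ± 1.05 TPM), the secretory pathway regulator Xbp1 (338 ± 26.5 TPM) and the oxidative stress regulator Nfe2l2 (280 ± 28.2 TPM). Cebpb, which was counted with the immediate early genes, stood just outside at a mean of 263 TPM (rank 506). Fli1, Irf5, Irf8, Etv5, Stat6, Nr3c1, Mef2c, Irf7, Cebpa and Irf1 were among those that followed, down to 76.0 TPM for Irf1. Gata6, the factor of peritoneal macrophages, and Gfi1 were at 0 counts.

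The motility class, second by share, rested on Tmsb4x, which held more than any other member by far. Sh3bgrl3 (2294 ± 204 TPM) and cytoplasmic actin, Actb (1993 ± 119 TPM), followed, and all 87 listed genes had at least 1 TPM. Interferon-stimulated genes held 1.43% ± 0.0447 of TPM in these vehicle-treated mice, led by the antiviral membrane proteins Ifitm3 (3450, 2748, 3289 and 3569 TPM), Ly6e (2397 ± 56.7 TPM) and Bst2 (1779 ± 138 TPM). Immediate early and feedback genes, which rise when cells are stressed during isolation, held less, between 0.378% and 0.429% of TPM. Dusp6 (567 ± 52.2 TPM), Nfkbia (332 ± 78.6 TPM) and Mcl1 (323 ± 29.8 TPM) were the only 3 of 53 in the top 500, and Nr4a3 had 0 counts.

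Vesicle and proton pump genes held 3.06% ± 0.0761 of TPM, with Tmem59 (1316 ± 49.4 TPM) and the sorting nexin Snx3 (1208 ± 51.2 TPM) behind Itm2b. Among ribosomal proteins Rps29 (2436 ± 217 TPM), Rplp1 and Rpl32 ranked highest, and among nuclear-encoded respiratory genes the cytochrome oxidase subunits Cox6b1 (1014 ± 91.2 TPM), Cox6a1 and Cox8a. The share of redox genes differed least between libraries relative to its mean, at 1.24% ± 0.0131, with Cyba, the thioredoxin inhibitor Txnip (1029 ± 86.5 TPM) and the peroxiredoxin Prdx1 (787 ± 78.2 TPM) at its head. Few glycolytic genes reached the top 500, as Ldha (279 ± 16.1 TPM) and Aldoa (273 ± 24.6 TPM) were the only 2, followed by Taldo1 (253 TPM). Reads that map to more than 1 place were not counted, which can lower genes with near-identical copies. The effect of this on the glycolytic and ribosomal levels was not tested. Elongation factor Eef1a1, the calcium sensor Calm2, polyubiquitin Ubb, the chaperone Hspa5, the histone H3f3b and the RNA-binding protein Ybx1 led their classes at 1586, 2404, 1185, 946, 964 and 612 TPM. Malat1, a nuclear long non-coding RNA, was the only one of its class in the top 500, at 840.5 ± 88.1 TPM.

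Replicate spread was small for abundant genes and grew as the level fell. Pearson's r of log2(TPM + 1) over all gene names lay between 0.955 and 0.966 for the 6 pairs of libraries, and over the top 500 between 0.956 (F1 with F2) and 0.989 (F1 with M1). Genes are not independent, and no p is given. The median CV was 6.57% for ranks 1 to 50, 9.43% for ranks 101 to 500, 21.8% for ranks 2001 to 5000 and 40.1% for ranks 5001 to 10000. Counting error alone would give medians of 0.387%, 1.09%, 3.11% and 5.88%. Within the top 500, 498 genes had a CV above their counting error, 76 had a CV under 5% and 19 of 20% or more. The highest library exceeded the lowest by at least 1.25 times in 206 of the 500 genes, by 1.5 times in 35 and by 2 times in 6.

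**Figure D4:**
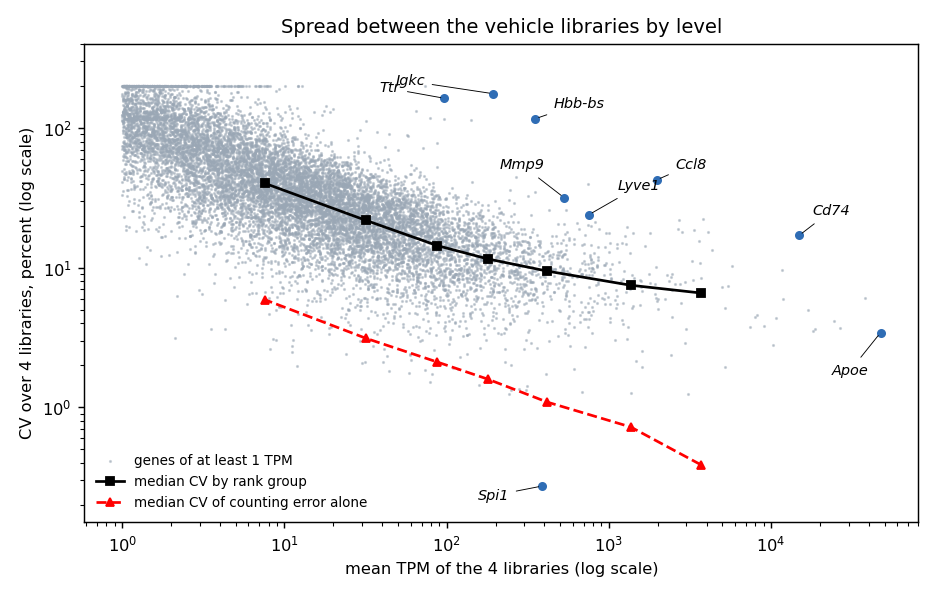
CV over the 4 vehicle libraries (percent, log scale) against mean TPM (log scale) for 12670 genes, with the median of 7 rank groups (squares) and the median expected from counting error alone (triangles). The median CV falls from 40.1% to 6.57% as the level rises and stays above the counting line. Igkc, Ttr and Hbb-bs lie far above it and Spi1 below.

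The most uneven gene of the top 500 was Hbb-bs, the adult beta-globin, with 6.14 TPM in F1, 842 in F2, 19.8 in M1 and 540 in M2 (CV 117%). It was high in F2 and M2 and low in the others, and the other globins did the same. Ptgds, the prostaglandin D synthase, came next with 439, 189, 188 and 250 TPM (CV 44.4%), high in F1 only. Mgl2, a galactose-binding lectin, held 1148, 779, 490 and 566 TPM, and Cd209a 376, 511, 298 and 223 TPM. Mmp9, a matrix metalloproteinase, was high in F2 only (464, 777, 463 and 410 TPM), and Rsrp1, a splicing-related gene, low in M2 only (468, 506, 470 and 262 TPM). Ccl8, Ccl7, Ighj1, Lyve1, Nfkbia and mt-Rnr2 completed the 12 with the largest CVs. The 12 steadiest were Spi1, Hexa, Tmem50a, Arf1, Herpud1, Rplp2, Rnf130, H2-T23, C3ar1, Ctsb, Gas6 and H2-K1, all with a CV of at most 2.14%.

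Some classes moved together from library to library. M2 was the highest and F2 the lowest library for all 9 mitochondrially encoded genes of the top 500, and their summed share was 2.05% in F1, 1.71% in F2, 2.05% in M1 and 2.62% in M2. F2 was also lowest for 29 of 36 ribosomal genes and 18 of 25 nuclear-encoded respiratory genes, against 157 of all 500 genes. M2 was highest for 23 of the 36 ribosomal genes, against 146 of 500. Gene length moved with these patterns, since the top 500 genes that were highest in F2 had a median length of 3020 bases and those lowest in F2 one of 1328 bases, with 1442 and 2812 bases for M2. The part of length, of RNA quality and of cell composition in these differences was not tested. In bulk samples fewer cells of a kind and less RNA per cell cannot be told apart.

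**Figure D5:**
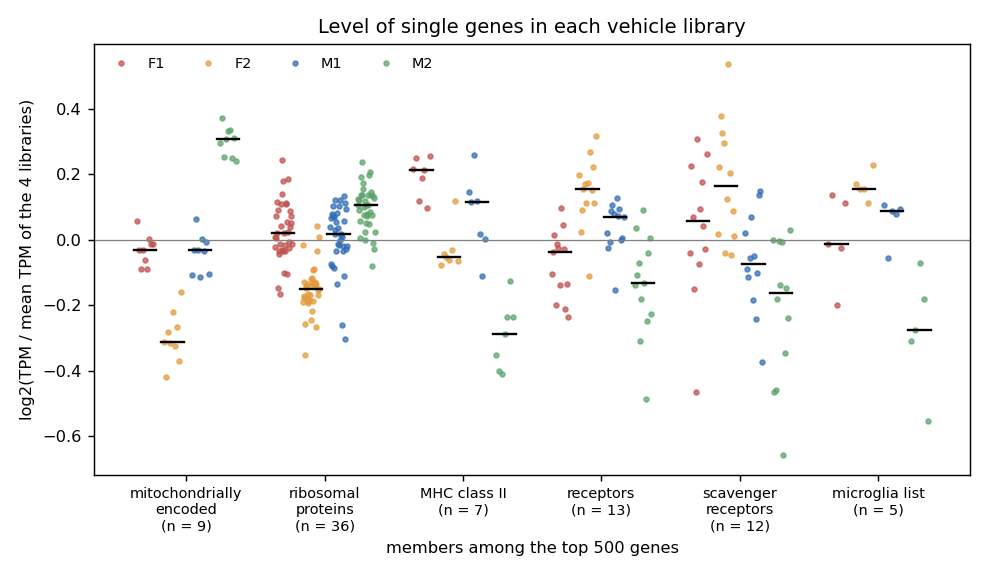
Log2 ratio of the TPM of single genes in each library to their mean over the 4 libraries, for members of 5 classes and of the microglia list among the top 500 genes (points) with the median (bar). Mitochondrially encoded genes have a median of 0.31 in M2 and -0.31 in F2, and MHC class II genes one of 0.21 in F1 and -0.29 in M2.

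Markers of other cell types were examined in 16 lists. The microglia list was the only one with more than 1 gene in the top 500, with 5 of 12 there and a sum of 11125 TPM in F1, 11881 in F2, 10736 in M1 and 8324 in M2. Fcrls, Gpr34, P2ry12 and P2ry13 were among these 5 genes. Macrophages outside the parenchyma can also express several of these genes. Of the members most restricted to microglia, Tmem119 held 304, 259, 270 and 136 TPM, Siglech 151, 167, 134 and 95.7 TPM, and the transcription factor Sall1 4.62, 8.25, 5.28 and 4.04 TPM. F2 was highest for all 5 top members, against 152 of all 500 genes, and for 10 of all 12 members of the list. M2 was lowest for 4 of the 5 top members, against 160 of all 500 genes, and for Tmem119, Siglech and Sall1. That library was also lowest for the class II genes of the top 500 and for Lyve1. The part of microglia in these levels was not tested.

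The other lists of cell types had lower sums. The neutrophil list summed to between 0.428 and 6.22 TPM, endothelial markers to at most 3.84 TPM and fibroblast markers to at most 5.77 TPM, with Ly6g, Camp, Vwf and Lum at 0 counts. Classical monocyte markers summed to between 33.5 and 79.1 TPM, nearly all of it from Ccr2 (45, 77, 65 and 29 TPM), while Chil3 and Vcan were at 0 counts. The 4 hemoglobin chains summed to 9.15 TPM in F1, 1544 in F2, 26.9 in M1 and 1093 in M2. Choroid plexus markers summed to 4.39, 57.7, 342 and 0.705 TPM, mostly from Ttr, although the plexuses had been removed, while Otx2 and Aqp1 were at 0 counts. Oligodendrocyte genes summed to between 137 and 189 TPM, led by Cnp, and astrocyte genes to at most 34.5 TPM. Cell cycle genes were low, as Mki67 had 0.291 and Top2a 1.07 TPM on average. T and NK cell markers summed to between 102 and 117 TPM, mostly from Cd4, with Cd3e read only in F2. Dendritic cell markers were led by Cd209a, with Xcr1 at 0 counts, mast cell markers summed to at most 3.97 TPM, and neuronal markers to at most 15.5 TPM, led by Snap25. Vtn led the mural cell markers at 21.7, 15.5, 2.69 and 4.65 TPM, with Rgs5 at 0 counts, and Aldh1l1 the astrocyte markers.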

How the data were processed

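Total RNA of sorted cells was made into libraries from sub-nanogram amounts with a PCR-amplified SMART-Seq protocol. Per the file headers, the authors counted reads with featureCounts 2.0.6 by gene name over the exons of GENCODE M33, filtered and extended by tdTomato, without strand and without multi-mapping reads, and the deposited values are raw counts with the exon length of each gene. The submitters' processing notes name STAR 2.7.11a and bcl2fastq 2.20. All 12 columns were assigned to samples by library name. The column of M2 carries the label of M1 and was assigned by its library number. TPM were computed from counts and lengths in Python 3.11.15, averaged over the 4 vehicle libraries and ranked. The code was tested on simulated data. Genes were named by rule: the 25 highest means, all identity and subunit genes, the leading members of classes and cell type lists, the 15 highest transcription factors and receptors, and the 12 highest and 12 lowest CVs of the top 500. List members at 0 counts, 75 of 1623 genes, were named by example. Library scaling was also done with edgeR 4.0.16 (TMM) and DESeq2 1.42.0 (size factors). The group, the gene lists and the promoter motifs were chosen with earlier results of these data known. No groups were compared. The only tests were a chi-square of the counts of library pairs and Dixon's critical value for 1 library apart. Protein sequences were not used here. Some genes that the rule would name are not reported here.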

Additional observations from a re-analysis of the deposited data

Results flagged for a closer look

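Among 111 measures examined (depth, shares of classes and lists, and single genes), 5 had 1 library whose gap to the nearest other, as a part of the range of the 4, was beyond Dixon's 95% critical value, and chance alone gives about 1 in 20. The chaperone class was highest in F2 (gap 0.849 of the range), with 1.06% of TPM there against 0.986% in F1, 0.991% in M1 and 0.996% in M2. Trf was also highest in F2 (gap 0.879), with 5504 TPM against 4768, 4849 and 4759 TPM. So was Mmp9 (gap 0.853), with 777 TPM against 464, 463 and 410 TPM. Rsrp1 was lowest in M2 (gap 0.845), with 262 TPM against 468, 506 and 470 TPM. The choroid plexus list was highest in M1 (gap 0.833), with 0.0342% of TPM there against 0.00577% in F2, 0.000439% in F1 and 7.05e-05% in M2.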

How the results depend on the processing

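Library-scaled counts (CPM) without gene length moved the shares of the 10, 100 and 500 leading genes to 13.8%, 34.3% and 54.0%, the share of all classes to 54.1% and the mean correlation of libraries from 0.960 to 0.970. It left 1779 genes at 100 or more, against 1331, and 322 classified genes in the top 500. Leaving out 1 library gave median CVs of the top 500 of 7.40% (without F2) to 9.57%, with 7.68% without M2, and 486 to 494 of the 500 genes were kept. It gave shares of 22.5% to 23.1%, 46.3% to 47.0% and 65.8% to 66.5%, and 1322 to 1347 genes at 100 TPM or more. Removing mitochondrially encoded genes, taking the median over libraries, requiring 10 counts in every library, and TMM (9.36%) or DESeq2 scaling (9.48%, both median CVs) moved none of these results past its spread, nor did leaving out entries under 200 bases, an alternative chosen after seeing the data. No paired analysis was possible because no groups were compared. For ranks 5001 to 10000 the median CV of 40.1% exceeded the 5.88% that counting error of reads alone would give. Without molecular identifiers the number of sampled molecules is not known, so the source of this spread was not tested.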

Other observations

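Ighm, the heavy chain of IgM, held 620, 482, 679 and 662 TPM in F1, F2, M1 and M2, and Cd79b, a chain of the B cell receptor, 100, 84, 82 and 117 TPM. The partner Cd79a was at 0 counts in F1 and F2 and at 13.3 and 2.95 TPM in M1 and M2. The light chain Igkc was at 0 counts in F1 and F2, at 71.3 TPM in M1 and at 700.1 TPM in M2, while Pax5 was at 0 counts in all 4 libraries. Ighj1, a joining segment of 53 bases, was listed at 332, 170, 354 and 412 TPM.

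Among 1331 genes of at least 100 TPM, only Hbb-bs, Igkc and Hba-a1 had a CV of 50% or more. Of the top 500 genes, 5 had entries shorter than 200 bases, namely Mir6236, Gm14303, mt-Te, Gm10736 and Ighj1, and their ranks by counts without length lay between 2858 and 8972. Exons of 104 of the top 500 genes overlapped another gene with counts, and in 25 of them that gene had more than 10% of the mean count, among them Ctsa with Pltp and mt-Nd6 with mt-Nd5. Mt-Nd6 was listed at 1287 TPM. Gm56663, an unclassified entry of 477 bases at chr19:11370206-11370682 (GRCm39), held 1346 TPM.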
